A study of Mus musculus with 10 samples.

Results

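The 10 immediate early genes Fos, Fosb, Jun, Junb, Egr1, Egr2, Egr3, Atf3, Ier2 and Nr4a1 were followed in whole-lung mRNA of 10 mice. They were taken by gene name from a table of 54532 genes, in which each name held 1 row, and all 10 passed the filter on low values. The increased pulmonary flow (IPF) group had 5 wild-type C57BL/6J mice with an aortocaval fistula, a puncture from the abdominal aorta into the inferior vena cava made at P7 that sends more blood through the lungs. The sham group had 5 wild-type C57BL/6J mice that went through the same P7 operation without the puncture. All lungs were collected at P30 and frozen, and the time of day of collection is not given in the sources used here. Pups of both sexes were used for the operation, and the records name the sex of no RNA sample.

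Immediate early genes are switched on within minutes by signals that a cell already has the proteins to read, so their mRNA appears before any new protein is made. Growth factors, stretch, shear stress, hormones, cold and handling of the tissue all reach them, mainly through MAP kinases acting on serum response factor with its ELK partners and through CREB. Most of their mRNAs decay quickly, so a tissue level is a picture of the last minutes to hours before freezing. Their products are largely transcription factors. FOS and JUN proteins pair to form AP-1, EGR proteins are zinc finger factors, ATF3 is a stress-induced partner of the AP-1 family, NR4A1 is an orphan nuclear receptor, and IER2 is a small nuclear protein.

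RefSeq promoter windows on GRCm38.p6, the build of the gene positions in the table, were found for 7 of the 10 genes. Shown here are the 130 bases before the start of the AP-1 genes Fos, Fosb and Junb and of Egr2, chosen as examples of windows that hold the sites searched for, with the letters read along each gene from 5′ to 3′. Capitals mark the core of the cAMP response element, TGACG on either strand, and the CArG box that serum response factor binds.
Fos, chr12:85473760-85473889, plus strand: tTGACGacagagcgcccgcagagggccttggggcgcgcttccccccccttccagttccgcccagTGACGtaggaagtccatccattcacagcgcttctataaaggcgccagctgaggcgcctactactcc
Fosb, chr7:19310046-19310175, minus strand: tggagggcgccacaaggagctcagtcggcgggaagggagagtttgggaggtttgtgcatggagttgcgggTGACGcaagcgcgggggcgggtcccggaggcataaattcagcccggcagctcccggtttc
Junb, chr8:84978749-84978878, minus strand: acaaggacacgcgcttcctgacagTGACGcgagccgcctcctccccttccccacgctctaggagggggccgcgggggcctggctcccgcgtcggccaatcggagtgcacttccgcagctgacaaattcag
Egr2, chr10:67537739-67537868, plus strand: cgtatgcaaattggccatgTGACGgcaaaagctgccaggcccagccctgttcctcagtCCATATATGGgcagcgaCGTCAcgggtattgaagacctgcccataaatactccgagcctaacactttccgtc
In the 250 bases before the start, 8 of the 11 windows of these genes held this core, some of them overlapping windows of Egr2. Of all 32817 promoters of the same length, 17.7% held it. Counted by gene, 6 of the 7 genes held the core in at least 1 of their windows. Jun was the gene without it, and Egr2 was listed with several starts, of which 1 is shown. The CArG box was found in windows of Egr2 alone among the 7 genes, and in 1.47% of all promoters. The AP-1 site TGANTCA, the only form of this site searched for, was in no window of the 7 genes and in 6.75% of all promoters. The E-box CACGTG of clock proteins was in 1 Egr2 window and in 6.02% of all promoters. These matches of letters are descriptions of the windows and not evidence of binding.

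Whole reads could be recovered from the deposited FPKM values (fragments scaled to gene length and to library size), and the recovered depth was 15483046 to 17818542 reads in the sham group and 16250190 to 19026843 in the IPF group. Lung markers were present, with summed levels of the alveolar type 2 markers of at least 11252 FPKM in every sample, while the 3 thymus markers stayed below the filter. The 3 heart muscle markers summed to 0.646 to 82.6 FPKM in IPF and 0.330 to 70.5 FPKM in sham samples and the 3 fat markers to 0.124 to 2.47 and 0.0282 to 0.188 FPKM, so the amount of these varied widely between samples, and its part in the results was not tested. Sham replicate 1 had the lowest mean Spearman correlation with the other samples (0.957, against 0.963 to 0.968), a description across genes. The sex-linked genes Xist, Ddx3y, Eif2s3y, Kdm5d and Uty split the samples by group: Xist was on in all IPF samples and the Y-linked genes in all sham samples. A difference between IPF and sham therefore cannot be told apart from a difference between these sexes. Of 18 clock genes, 17 passed an adjusted p of 0.05 (limma), 5 higher and 12 lower in the IPF group, so the groups also differed in clock state. The records name no batch.

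Jun was the most abundant of the 10 mRNAs per length. Over the 10 mice the means were 114.2 FPKM for Jun, 42.3 for Ier2, 17.6 for Junb, 9.16 for Nr4a1 and 7.66 for Fos. Egr1 followed at 5.59 FPKM, Atf3 at 4.14, Egr2 at 1.33, Fosb at 0.786 and Egr3 at 0.555. Jun, Ier2, Junb and Nr4a1 followed each other in this order in 10 of 10 mice, and so did Egr1, Atf3 and Egr2. The lower steps were less clear: Fos lay under Nr4a1 in 9 and above Egr1 in 8 of 10 mice, and Egr2 lay above Fosb in 9. The order of Fosb and Egr3 differed between the groups: Fosb was the higher of the pair in 5 of 5 sham mice and in 1 of 5 IPF mice, given as a description without a test.

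**Figure D1:**
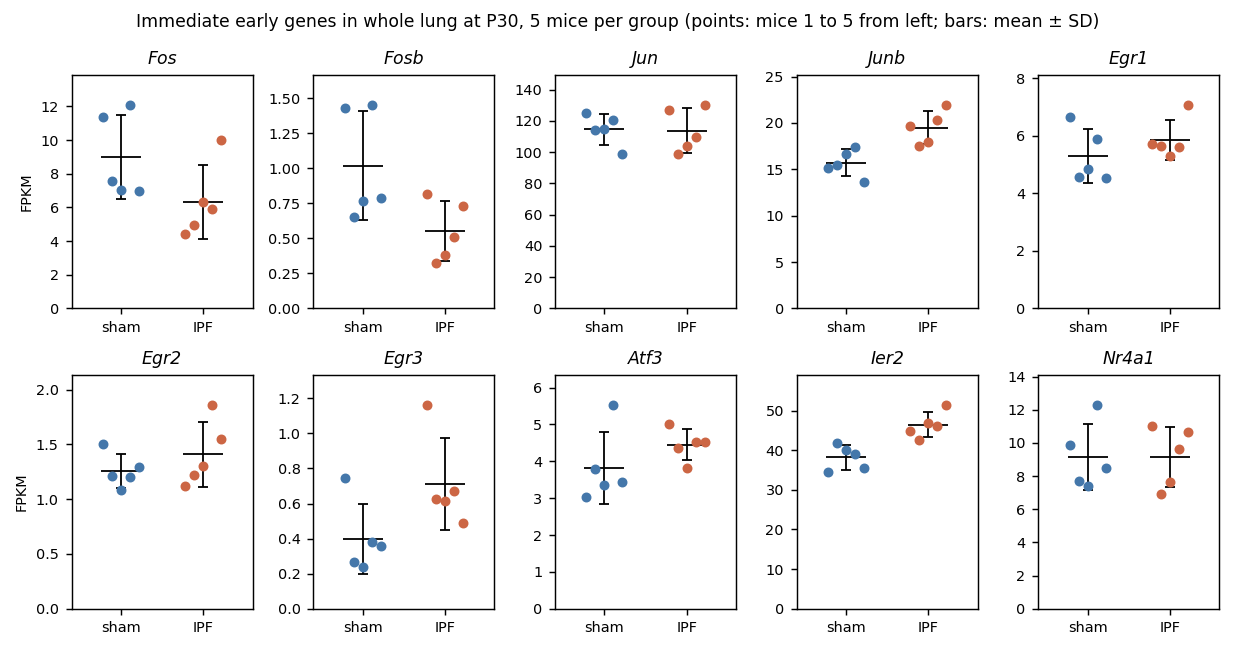
FPKM of each immediate early gene in sham (blue) and IPF (orange) lungs, 1 point per mouse, with the mean and SD as bars; each panel has its own FPKM axis from 0. Junb and Ier2 are the genes whose groups do not overlap, while Fos and Fosb are high in sham replicates 1 and 4 and Egr3 is high in IPF replicate 1.

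Compared between the groups, the immediate early genes did not all differ in one direction. Junb and Ier2 were higher in the IPF group by 24.0% and 21.6%, Fos and Fosb had lower means there, Egr3 had a higher mean, and Jun and Nr4a1 had nearly equal means. By sign, 7 of the 10 genes were higher and 3 were lower in the IPF group, with a median log2 fold change of 0.15, against 0.00 over all 20448 genes tested. At an adjusted p under 0.05 from limma on log2(FPKM + 0.1), 2 of the 10 genes were called, both higher, where 5.85% of all genes tested were called, 3.71% higher and 2.14% lower. At an unadjusted p under 0.05 there were 5 of the 10, 3 higher (Junb, Ier2 and Egr3) and 2 lower (Fos and Fosb), where 19.5% of all genes tested passed, 11.2% higher and 8.3% lower. None of the 10 passed the study's second limit, an absolute log2 fold change above 1, which with the adjusted p was met by 1.14% of all genes. The largest absolute log2 fold change on the list was 0.77, for Fosb. With 1 in place of 0.1 added to FPKM, the largest was that of Fos, at -0.46. The exact permutation test, quoted below for single genes, is two-sided over all assignments of the 10 samples to groups of 5, and its smallest possible p is 0.00794. Whole lung mixes many cell types, so less RNA per cell and fewer of the cells that make it cannot be told apart. Fold changes on this scale understate the change of genes with low levels, here Fosb, Egr3 and Egr2.

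**Figure D2:**
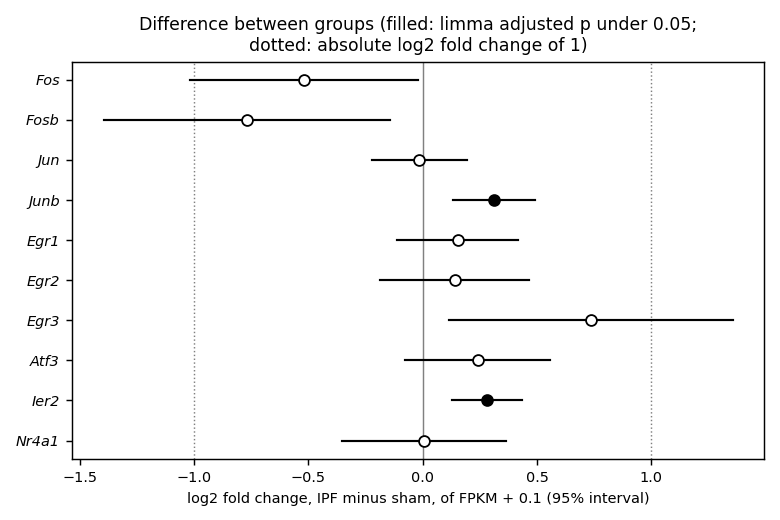
log2 fold change, IPF minus sham, of FPKM + 0.1 for each gene, with the 95% interval of the limma fit as a line; filled points passed an adjusted p of 0.05, and dotted lines mark an absolute log2 fold change of 1. Junb (0.31) and Ier2 (0.28) are filled, and the widest intervals belong to Fosb and Egr3.

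Junb (ENSMUSG00000052837, chromosome 8 of GRCm38, 84974484 to 84978718), an AP-1 subunit that activates weakly and can restrain JUN, rose in the IPF group. Its levels were 19.7, 17.5, 17.998, 20.3 and 21.9 FPKM in IPF replicates 1 to 5, and 15.2, 15.5, 16.7, 17.5 and 13.7 FPKM in sham replicates 1 to 5. Every IPF sample lay above every sham sample, with the closest pair, IPF replicate 2 and sham replicate 4, nearly touching. The log2 fold change was 0.31 (SE 0.08, Benjamini-Hochberg (BH) adjusted p = 0.0479, exact p = 0.00794), on 480 to 893 reads per sample. Leaving out 1 sample at a time, the adjusted p ran from 0.0430 to 0.115 and stayed under 0.05 in 3 of 10 fits, those without IPF replicate 2, IPF replicate 3 or sham replicate 4. Without sham replicate 1, the library least like the others, the log2 fold change was 0.30 and the adjusted p 0.0868. The call also ended without the filter on low values (adjusted p = 0.0712), with median-of-ratios scaling (0.0556), with quantile normalization (0.0607), without the variance trend (0.0923) and with replicate number as a block (0.0991). Junb overlaps Prdx2 on the opposite strand, and the sources used here do not say whether strand was used in counting. Prdx2 was at 30.5 to 40.4 FPKM in IPF and 22.5 to 36.6 FPKM in sham samples, and its part in the Junb value was not tested.

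Ier2 (ENSMUSG00000053560, chromosome 8, 84661331 to 84662852), an immediate early gene with a short single-exon transcript, rose as well. IPF replicates 1 to 5 were at 44.97, 42.7, 46.9, 46.1 and 51.3 FPKM, and sham replicates 1 to 5 at 34.4, 41.8, 40.1, 39.1 and 35.5 FPKM. The groups did not overlap, which held for 2 of the 10 genes, Junb and Ier2, and for 7.29% of all genes tested (4.52% with the IPF group higher and 2.77% with it lower). The log2 fold change was 0.28 (SE 0.07, limma BH adjusted p = 0.0375, exact p = 0.00794), with 825 reads or more in each sample. The adjusted p stayed under 0.05 in 2 of the 10 fits that left out a sample, without IPF replicate 2 or without sham replicate 2, and reached 0.0864 without sham replicate 5. Without sham replicate 1 the log2 fold change was 0.25 and the adjusted p 0.0652, so that none of the 10 genes was called in that fit by limma. The call of Ier2 also ended without the filter on low values (adjusted p = 0.0577), without the variance trend (0.0794) and with replicate number as a block (0.0854). Ier2 had the smallest spread between mice of the 10 genes, a residual SD of 0.11 on the log2 scale, at percentile 14.6 of all genes tested.

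Some markers of other cell types also passed the test with the IPF group higher. The summed level of the 4 endothelial markers was 981 to 1113 FPKM in IPF and 844 to 891 FPKM in sham samples, with 1 of 4 called (Cldn5, 451 against 309 FPKM) and Pecam1 at a log2 fold change of -0.05, and that of the 3 B cell markers was 17.0 to 26.9 and 7.63 to 13.5 FPKM, with 3 of 3 called. The 4 neutrophil markers summed to 47.8 to 286 FPKM in IPF and 11.8 to 67.9 FPKM in sham samples, with 0 of 4 called. In the T cell list 1 of 3 was called (Cd4, log2 fold change 0.48, with Cd8a at 0.62 and Cd3e at 0.10) and in the fibroblast list 1 of 3 (Pdgfra, 0.35, with Dcn at 0.18 and Col1a1 at -0.20), with summed levels of 3.25 to 5.46 and 134 to 224 FPKM in IPF and 2.78 to 3.28 and 146 to 191 FPKM in sham samples. The 3 red blood cell markers summed to 276 to 2873 FPKM in IPF and 739 to 2865 FPKM in sham samples, with 0 of 3 called. The part of these cells in the levels of Junb and Ier2 was not tested.

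Fos (ENSMUSG00000021250, chromosome 12, 85473890 to 85477273), the partner that gives AP-1 its strongest activity and the classic mark of recent stimulation, was not called. Sham replicates 1 to 5 held 11.3, 7.54, 7.04, 12.1 and 6.97 FPKM, and IPF replicates 1 to 5 held 4.45, 4.95, 6.32, 5.88 and 10.0 FPKM. In 4 of 5 IPF mice Fos was below all sham mice, and IPF replicate 5 lay inside the sham range, above 3 sham mice. Its log2 fold change was -0.52 (SE 0.23, limma BH adjusted p = 0.235, exact p = 0.0952), with a 95% interval from -1.02 to -0.02. Without IPF replicate 5 it was -0.70 (limma BH adjusted p = 0.0509; range up to 0.402 over the 10 fits with a sample omitted). The spread between mice was wide, with SDs of 0.44 in the IPF and 0.39 in the sham group on the log2 scale.

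Fosb (ENSMUSG00000003545, chromosome 7, 19302696 to 19310051), the FOS relative with the longest transcript of the list, was on average lower in the IPF group on few reads, 34 to 87 per IPF sample and 73 to 151 per sham sample. Its levels were 1.43, 0.652, 0.768, 1.45 and 0.788 FPKM in sham replicates 1 to 5 and 0.819, 0.327, 0.381, 0.510 and 0.733 FPKM in IPF replicates 1 to 5. Here 3 of 5 IPF mice were below all sham mice, and IPF replicates 1 and 5 overlapped the lower sham mice. This gave a log2 fold change of -0.77 (SE 0.29, limma BH adjusted p = 0.156, exact p = 0.0556), with a 95% interval from -1.40 to -0.14. With 1 in place of 0.1 added to FPKM, the log2 fold change of Fosb was -0.37. In sham replicates 1 and 4 both Fos and Fosb stood highest. Without sham replicate 1 the log2 fold changes were -0.43 for Fos and -0.64 for Fosb.

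Jun (ENSMUSG00000052684, chromosome 4, 95049034 to 95052222), the AP-1 subunit that can act without a FOS partner, had almost the same mean in both groups, 113.8 ± 14.1 FPKM in IPF and 114.7 ± 9.95 FPKM in sham mice (SD, n = 5 each). With these means the log2 fold change was -0.01 (limma BH adjusted p = 0.957), with a 95% interval from -0.22 to 0.19. IPF samples ran from 98.6 to 130.1 FPKM and sham samples from 98.6 to 124.8 FPKM. Jun overlaps an antisense gene, Junos, which held 0.906 to 1.57 FPKM over all samples. Of the 4 AP-1 subunits on the list, 1 was called, Junb, where 5.85% of all genes tested were called. A list of 4 genes is too short to read this count as a result about the family.

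The level of Fos relative to Junb was set out per mouse after both had been seen, so it is given without a test. As the difference Fos minus Junb on the log2(FPKM + 0.1) scale, it was -2.12, -1.80, -1.50, -1.77 and -1.13 in IPF replicates 1 to 5 and -0.42, -1.03, -1.23, -0.53 and -0.96 in sham replicates 1 to 5. Each mouse of either group held less Fos than Junb, and IPF replicate 5 was the IPF mouse that came above a sham mouse, sham replicate 3. The means were -1.66 and -0.83 in IPF and sham mice.

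Egr3 (ENSMUSG00000033730, chromosome 14, 70077203 to 70082614), an EGR factor of lymphocytes, muscle spindles and nerve cells, had the largest positive log2 fold change of the list. IPF replicates 1 to 5 held 1.16, 0.626, 0.612, 0.673 and 0.487 FPKM, and sham replicates 1 to 5 held 0.744, 0.266, 0.240, 0.382 and 0.357 FPKM. All 5 IPF mice were above the sham median, while sham replicate 1 lay above all IPF mice but replicate 1. The log2 fold change was 0.74 (SE 0.28, limma BH adjusted p = 0.171, exact p = 0.0397) on 17 to 87 reads per sample. Without sham replicate 1 it was 0.95 (limma BH adjusted p = 0.0562; range up to 0.314 over the 10 fits with a sample omitted). With array weights, which down-weight samples that vary more and gave sham replicate 1 the lowest weight, the limma adjusted p was 0.0360, and with a pseudocount of 1 the log2 fold change was 0.29.

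Egr1 (ENSMUSG00000038418, chromosome 18, 34859823 to 34864984), the EGR factor that serum response factor drives most directly, ranged from 5.28 to 7.07 FPKM in IPF and from 4.53 to 6.67 FPKM in sham mice. Its log2 fold change was 0.15 (SE 0.12, limma BH adjusted p = 0.537), with a 95% interval from -0.11 to 0.42. With a sample omitted it ran from 0.09, without IPF replicate 5, to 0.24, without sham replicate 1 (limma BH adjusted p of 0.268 or more). Egr2 (ENSMUSG00000037868, chromosome 10, 67535475 to 67542188), known for its part in myelin and hindbrain formation, was at 1.124 to 1.86 FPKM in IPF and 1.08 to 1.4997 FPKM in sham mice, with a log2 fold change of 0.14 (limma BH adjusted p = 0.654). For Egr2 the fits with a sample omitted ran from 0.04, without IPF replicate 4, to 0.21, without IPF replicate 1. All 3 EGR genes had a higher mean in the IPF group, and 0 of 3 were called, where 5.85% of all genes tested were called. A list of 3 genes is too short to read this count as a result about the family.

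Atf3 (ENSMUSG00000026628, chromosome 1, 191170296 to 191218039), a repressor-type factor of stressed cells, was at 3.83 to 5.02 FPKM in IPF and 3.04 to 5.52 FPKM in sham mice. All IPF mice were above the sham median, and sham replicate 4 was the highest of all 10 mice. Its log2 fold change was 0.24 (limma BH adjusted p = 0.399), and without sham replicate 4 it was 0.38 (limma BH adjusted p = 0.0575; range up to 0.609 over the 10 fits with a sample omitted). The sham mice spread more than the IPF mice, with SDs of 0.33 and 0.14 on the log2 scale, a difference that was not tested.

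Nr4a1 (ENSMUSG00000023034, chromosome 15, 101254269 to 101274795), a nuclear receptor that T cell receptor signals and cAMP induce, had nearly the same mean in both groups. IPF replicates 1 to 5 held 11.0, 6.91, 7.64, 9.63 and 10.6 FPKM, and sham replicates 1 to 5 held 9.89, 7.69, 7.40, 12.3 and 8.48 FPKM. Both groups covered nearly the same range, and the log2 fold change was 0.01 (SE 0.16, limma BH adjusted p = 0.993), with a 95% interval from -0.35 to 0.36. Its relatives Nr4a2 and Nr4a3, on the list of other immediate early factors, both fell in the IPF group: Nr4a2 from 2.82 ± 0.258 to 1.83 ± 0.125 FPKM (log2 fold change -0.59, limma BH adjusted p = 0.00415) and Nr4a3 from 2.37 ± 0.481 to 1.04 ± 0.344 FPKM (log2 fold change -1.14, limma BH adjusted p = 0.00940, errors as SD of 5 mice). Whether Nr4a1 differed from these relatives in its response was not tested.

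Beyond the group difference, the next question was whether the same mice were high for several of these genes. After the group means were subtracted, 37 of the 45 pairs had a positive Pearson r across the 10 mice, with a median of 0.42 and a range from -0.70 to 0.94. The pairs share genes and mice, and pairs of other genes were not computed. Whether this pattern is particular to the 10 genes was therefore not tested. After adjustment over the 45 pairs, 1 pair passed 0.05, and 11 did before adjustment. Fosb and Nr4a1 had r = 0.94 (permutation p = 0.000160, adjusted 0.00720) and rho = 0.93 (permutation p = 0.000280, adjusted 0.0126). Without IPF replicate 1 and sham replicate 4, the mice whose Fosb, after the group means were subtracted, lay farthest from the median, r was 0.91. Sham mice nevertheless held more Fosb at a given Nr4a1 level: the difference Fosb minus Nr4a1 ran from -4.04 to -3.60 in IPF mice and from -3.37 to -2.71 in sham mice on the log2(FPKM + 0.1) scale, given without a test because the pair was chosen after its values were seen.

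**Figure D3:**
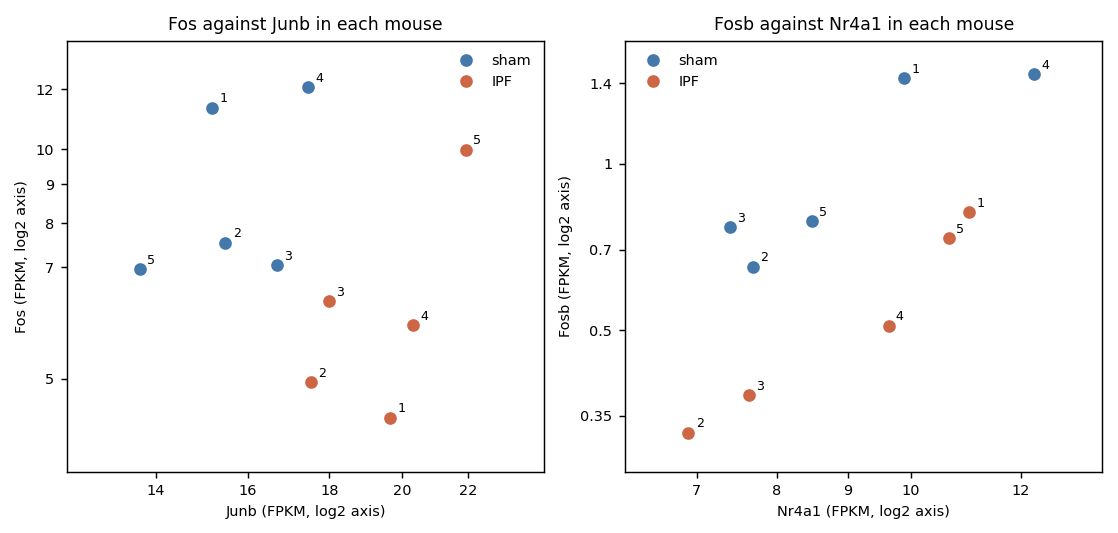
Left, Fos against Junb, and right, Fosb against Nr4a1, in FPKM on log2 axes, 1 numbered point per mouse (blue sham, orange IPF). On the right the points of each group rise together, with the sham mice lying above the IPF mice at like Nr4a1 levels, and on the left IPF replicate 5, at 10.0 FPKM of Fos, is the IPF mouse whose Fos lies within the sham range.

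Other pairs were looser. Fos and Egr1 had r = 0.82 (permutation p = 0.00592, adjusted 0.0802) but rho = 0.55 (permutation p = 0.104, adjusted 0.313), and r was 0.70 without IPF replicate 5 and sham replicate 4. Fosb with Jun (r = 0.82, permutation p = 0.00641, adjusted 0.0802; rho = 0.71, permutation p = 0.0269, adjusted 0.221) kept r = 0.78 without IPF replicate 1 and sham replicate 4. Fos and Fosb, close relatives with a similar group difference, had r = 0.56 (permutation p = 0.0929, adjusted 0.259) and rho = 0.19 (permutation p = 0.608, adjusted 0.829), and r was 0.29 without IPF replicate 5 and sham replicate 4. The pair Egr3 and Ier2 had the lowest r, -0.70 (permutation p = 0.0235, adjusted 0.148; rho = -0.71, permutation p = 0.0275, adjusted 0.221), and it was -0.69 without IPF replicate 1 and sham replicate 1. The permutations treat the 10 deviations as independent, though subtracting the group means ties them.

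**Figure D4:**
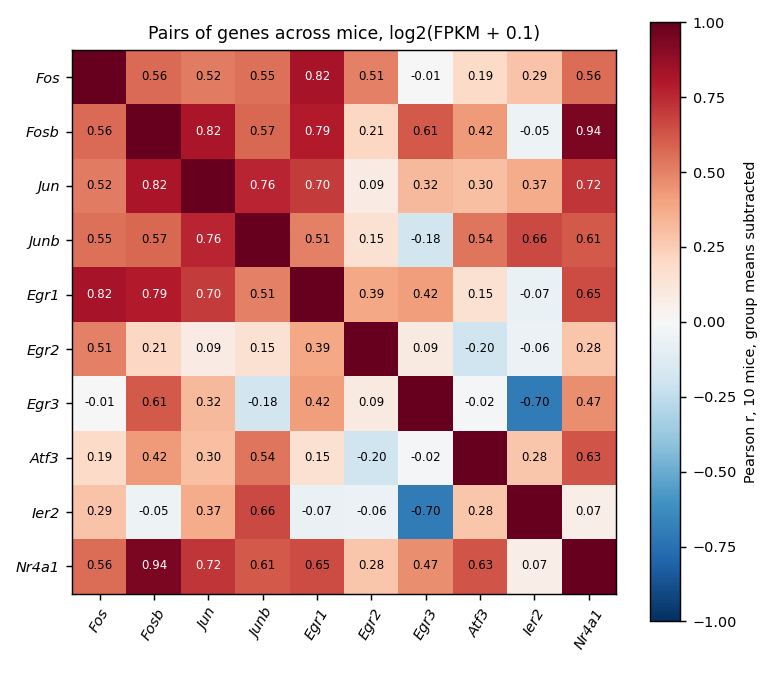
Pearson r of each pair of immediate early genes across 10 mice on log2(FPKM + 0.1) after subtracting the group means; red is positive and blue negative. The pairs among Fosb, Jun, Egr1 and Nr4a1 are all red, with r from 0.65 to 0.94, and Egr3 with Ier2 is the bluest cell at -0.70.

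As an average over the 10 genes, each scaled to unit SD after subtracting the group means, the mice highest within their groups were IPF replicate 5 (0.90) and sham replicate 4 (0.92), and the lowest were IPF replicate 2 (-0.84) and sham replicate 5 (-0.71). Among 13437 other genes with a mean of at least 1 FPKM, those with the pattern most like this average over the 10 mice were Gmcl1 (r = 0.94), Slc39a6 (0.94), Stk40 (0.94), C2cd2l (0.92) and Erf (0.91). These values are descriptions of the extremes of a ranking over many genes, so they carry no p. The residual SD of the 10 genes had a median of 0.24 on the log2 scale, against 0.23 over all genes tested. Fosb (0.49, percentile 76.1), Egr3 (0.47, percentile 74.8) and Fos (0.42, percentile 71.4) were the more variable genes, and Ier2, Junb and Jun (0.16, percentile 32.2) the steadier ones.

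Further genes of the same response were followed on lists written from general knowledge. Of 30 other immediate early factors tested, 13 were called, 5 higher and 8 lower in the IPF group (limma, adjusted p under 0.05), with a median log2 fold change of -0.14. The 13 were 43.3% of those tested, against 5.85% of all genes tested (3.71% higher and 2.14% lower). Ier5, an immediate early gene related to Ier2, rose from 22.8 ± 2.70 to 36.3 ± 0.621 FPKM (log2 fold change 0.68, limma BH adjusted p = 0.000637), and Maff, a small MAF factor that can pair with FOS, fell from 17.2 ± 1.94 to 8.70 ± 2.10 FPKM (log2 fold change -0.997, limma BH adjusted p = 0.00307, errors as SD of 5 mice). The other genes that rose were Klf10, Ier3, Gadd45a and Ier5l, with log2 fold changes from 0.37 to 0.52, and among those that fell were Nr4a2, given above, and the matricellular gene Ctgf (-1.30). Maff was also 1 of the 2 called among 13 other AP-1 and ATF partners (15.4% of that list). The other was Batf2, an interferon-induced member, which rose from 1.13 ± 0.118 to 1.95 ± 0.372 FPKM (log2 fold change 0.72, limma BH adjusted p = 0.0135), and Batf had a log2 fold change of 0.62 (limma BH adjusted p = 0.0651). Jund and Fosl2, named after their values were seen, were at 53.5 ± 7.24 and 7.83 ± 1.22 FPKM in IPF and 56.0 ± 7.20 and 8.87 ± 0.947 FPKM in sham mice (SD, n = 5 each) and were not called. Ier5, Maff, Nr4a2 and Batf2 were called in all 10 fits that left out 1 sample, and the count of called factors in those fits lay between 8, without IPF replicate 2 or sham replicate 3, and 14. Without IPF replicate 5, 5 of the AP-1 and ATF partners were called.

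Among 24 feedback inhibitors of these signals, 6 were called, 5 higher and 1 lower. The 6 were 25% of the list, against 5.85% of all genes tested. Zfp36l1, which binds AU-rich mRNAs and hastens their decay, rose by 0.57 on the log2 scale (limma BH adjusted p = 0.000969), and the antiproliferative gene Btg1 rose by 0.39 (limma BH adjusted p = 0.00254). Sik1, a salt-inducible kinase that holds CREB coactivators out of the nucleus, fell from 21.2 ± 2.75 to 14.3 ± 0.630 FPKM (SD, n = 5 per group, log2 fold change -0.55, limma BH adjusted p = 0.00296). Dusp1, the MAP kinase phosphatase most often read with Fos and named after its values were seen, was at 65.5 ± 22.4 FPKM in IPF and 75.4 ± 8.96 FPKM in sham mice (limma BH adjusted p = 0.497). Spry1, Socs3 and Dusp5 rose as well, with log2 fold changes from 0.30 to 0.39. Leaving out 1 sample gave 4 to 10 called inhibitors, with the 10 found without IPF replicate 5.

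Upstream, 2 of 24 genes for kinases and for SRF, ELK and CREB factors were called, both higher, with a median log2 fold change of 0.02. This was 8.33% of the list, near the 5.85% of all genes tested, and the count was 1 in 8 of the 10 fits that left out a sample. They were Elk3, a partner of serum response factor (log2 fold change 0.31, limma BH adjusted p = 0.00608), and the X-linked kinase gene Rps6ka3 (0.32, limma BH adjusted p = 0.0484), which was called in 2 of the 10 fits that left out 1 sample, those without IPF replicate 5 or sham replicate 5. Atf1 had a log2 fold change of 0.15 (limma BH adjusted p = 0.113). Of 17 inflammatory genes tested that AP-1 and EGR factors can induce, 6 were called, 3 higher (Lif, Ccl2 and Ccl4, secreted signals, each at a mean near or below 1 FPKM) and 3 lower. The 6 were 35.3% of those tested, against 5.85% of all genes tested. F3, tissue factor and a textbook EGR1 target, fell from 25.8 ± 2.02 to 12.3 ± 2.09 FPKM (log2 fold change -1.08, limma BH adjusted p = 0.000347, errors as SD of 5 mice). Areg, an EGF receptor ligand, fell by 0.76 on the log2 scale (limma BH adjusted p = 0.0253) and was called in 5 of those 10 fits, losing the call without IPF replicates 1, 2 or 4 or sham replicates 3 or 5. The count of 6 was 2 without IPF replicate 1, IPF replicate 4, sham replicate 3 or sham replicate 5, and 3 without IPF replicate 2 or IPF replicate 3.

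**Figure D5:**
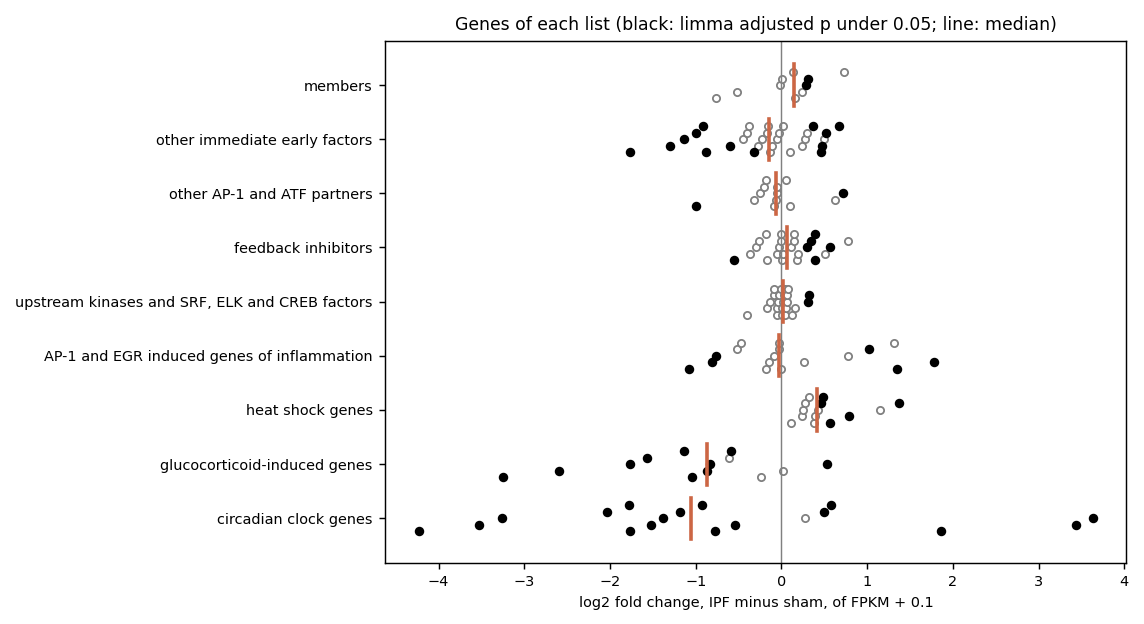
log2 fold change, IPF minus sham, of FPKM + 0.1 for every tested gene of each list; black points passed a limma adjusted p of 0.05, open points did not, and the line is the median of the list. The 10 immediate early genes lie between -0.77 and 0.74, while the clock and glucocorticoid lists reach beyond 2 in absolute value.

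Genes of stress and hormone inputs that also reach immediate early genes were followed as well. All 14 heat shock genes had a higher mean log2 level in the IPF group, with a median log2 fold change of 0.41, and 5 were called, all higher, led by Chordc1 (log2 fold change 0.46, limma BH adjusted p = 0.0165), Hspa8 (0.57, limma BH adjusted p = 0.01998) and Hspa1b (1.37, limma BH adjusted p = 0.0232), with Hsph1 (0.79) and Dnaja1 (0.48) as the others. The 5 were 35.7% of the list, against 5.85% of all genes tested. The count of 5 moved from 1, without IPF replicate 2, sham replicate 3 or sham replicate 5, to 11, without IPF replicate 5, and was 2 or 3 without IPF replicates 1 or 4 or sham replicates 1 or 2 and 7 without sham replicate 4. Hspa8 lost its call without IPF replicate 2, sham replicate 3 or sham replicate 5, and Hspa1b was called in 3 of the 10 fits, without IPF replicate 3, IPF replicate 5 or sham replicate 4. Of 13 genes that glucocorticoids induce, 10 were called (76.9%), 9 lower and 1 higher, with a median log2 fold change of -0.87. Ddit4, an inhibitor of mTOR signaling, was at 13.8 ± 1.595 against 30.6 ± 5.08 FPKM, Fkbp5, the glucocorticoid receptor chaperone, at 3.32 ± 3.25 against 16.2 ± 2.66 FPKM, and Per1, both a clock and an immediate early gene, at 13.3 ± 7.68 against 41.0 ± 5.21 FPKM in IPF against sham mice (SD, n = 5 each). The part of clock state, glucocorticoid exposure and heat shock response in the levels of the 10 immediate early genes was not tested.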

How the data were processed

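Lung mRNA of 5 IPF and 5 sham mice was analysed. The methods state that the authors trimmed reads with Fastp, aligned them with HISAT2 and quantified genes with StringTie, and they deposited 1 FPKM value per gene and sample. The methods name GRCm39, but the table runs to position 195323493 on chromosome 1 and its positions are those of GRCm38. The submitters' processing notes list Bowtie 0.12.2 without a role. Gene lengths were used as deposited. Multiplying FPKM by gene length gave multiples of a constant for each sample (tolerance 0.02, values under 1000 reads), from which reads were recovered. Pairs of samples of a group differed by more than sampling noise (4.49 to 34.3 chi-square units for each degree of freedom).

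Genes with a mean of at least 0.1 FPKM (20448 of 54532) went into limma 3.58.1 (R 4.3.3), trended empirical Bayes on log2(FPKM + 0.1), with no covariate and Benjamini-Hochberg adjustment. The methods name DESeq2, which was not run here. The deposited values are FPKM, and voom on recovered reads was the alternative for counts. Where nothing says that samples were processed apart, p-values measure the spread between these samples. Pairs of genes were compared by 100000 permutations in Python 3.11.15 (numpy 2.4.6, pandas 2.3.3, scipy 1.17.1). The fit was tested on simulated data.

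The members, lists and tests were chosen with earlier results of these data known. Named genes are the 10 members, the 3 with the smallest p on each list, genes that make up a count of 5 or fewer, and the 5 most like the members' average. Nr4a3, Ctgf, Jund, Fosl2 and Dusp1 were chosen after their values were seen. A gene that this rule names is not reported here. Alternatives were other pseudocounts, filters and scalings, voom on the recovered reads, array weights, a fit without the variance trend, a replicate block, autosomal genes alone, and leaving out each sample. The counts of called genes on the lists under these settings were added after seeing the data. Promoters came from RefSeq (GRCm38.p6).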

Additional observations from a re-analysis of the deposited data

Results flagged for a closer look

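Each gene was examined for a lone sample in each group of 5 by the gap of the highest or lowest sample to its nearest neighbour, as a share of the range of log2(FPKM + 0.1). Of the 20 groups, 1 passed Dixon's 95% limit, and chance alone would pass about 1 in 20. It was Egr1, with 7.07 FPKM in IPF replicate 5 where the other IPF mice lay between 5.28 and 5.73 FPKM. The same mouse had the highest Fos, Jun, Junb and Ier2 of the IPF group.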

How the results depend on the processing

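The call of Junb and Ier2 lies close to the limit. Of the 10 genes, 0 were called without the filter on low values, without the variance trend or with the replicate block (all limma), where 2.89%, 4.69% and 5.11% of all genes tested were called. In the fit as reported 5 had an unadjusted p under 0.05, where 19.5% of all genes did. With median-of-ratios scaling or quantile normalization 1 was called (5.79% and 5.83% of all genes), and 3 with array weights (8.55%). Leaving out each sample gave 0 to 2 (3.78% to 7.88%). The remaining alternatives called the same number as reported. Past both of the study's limits the count was 0 in every setting run, and the median log2 fold change of the list lay between 0.09 and 0.18 when a sample was left out. Fos and Fosb stayed lower, and Egr1, Egr2, Egr3, Atf3, Junb and Ier2 higher, in the IPF group in every setting run that tested them; with a minimum mean of 1 FPKM, Fosb and Egr3 were not tested. The sign of the 2 genes with nearly equal means was not stable: Nr4a1 was at -0.0013 with median-of-ratios scaling, -0.015 with quantile normalization and -0.066 to 0.116 when a sample was left out, and Jun at -0.068 to 0.034 when a sample was left out. Same-numbered IPF and sham samples had correlations of their deviations from -0.04 to 0.17. For replicates 1, 3 and 5 (0.17, 0.091 and 0.099) this was above the highest with another number (0.039, 0.089 and 0.039). For replicates 2 and 4 (0.092 and -0.04) it was below it (0.12 and 0.11). These values do not settle whether the numbers mark pairs, and the fit as reported did not take them as pairs. With the replicate block the limma BH adjusted p was 0.0854 for Ier2 and 0.0991 for Junb, and 2 inflammatory genes were called. For Fosb and Egr3 the limma BH adjusted p fell with this block, from 0.156 to 0.0853 and from 0.171 to 0.0770. The causes of these shifts were not tested. Egr3, Egr2 and Fosb had the fewest reads.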

Other observations

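Ier2 and Junb, the 2 genes called, lie 311631 bases apart on chromosome 8. Of the 17 genes tested between them, 9 were higher and 8 lower by sign, and 2 were called, both higher, where 5.85% of all genes tested were called and 3.71% higher. The interval was chosen after the pair had been seen to be neighbours. The called genes were Lyl1, a blood and endothelial transcription factor, with 11.2 against 7.19 FPKM in IPF against sham mice (log2 fold change 0.64, limma BH adjusted p = 0.00159), and G430095P16Rik, with 1.04 against 0.398 FPKM (log2 fold change 1.27, limma BH adjusted p = 0.0230). The median log2 fold change of the 17 genes was 0.07.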
